A study of Mus musculus with 12 samples.

Results

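A list of 31 neuronal and synaptic genes was followed through 12 RNA sequencing libraries of aged mouse brain. The aim was to describe RNA of these genes in the captured astrocyte fraction and in the cells left behind. The list names genes of synaptic vesicle fusion, vesicle and active zone proteins, transmitter synthesis and loading, the neuronal cytoskeleton, the postsynaptic side, neuronal RNA and RNA binding, and a pair of genes of the neuronal surface and metabolism. All 31 matched an entry among the 41388 genes of the deposited files, and all 31 were counted well enough to be tested in every comparison.

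Astrocyte libraries were made from 4 mice labelled KO and 4 labelled WT, and flowthrough libraries from 2 of the KO and 2 of the WT mice. All 8 mice carried Bmal fl/fl alleles on a C57BL/6 background and all were gavaged with tamoxifen when 2 months old, at a daily 2 mg over 5 days. The KO mice were Cre+ for ALDH1L1-CreERT2, an inducible recombinase under an astrocyte promoter, and the WT mice were Cre-, so both groups had the floxed alleles and the drug. Whole brains were taken at 20 months and dissociated, and cells bearing ACSA-2, an astrocyte surface antigen, were bound to magnetic beads as the astrocyte fraction while the unbound cells were kept as flowthrough. Libraries are named by label and mouse number, and within a group each came from a different mouse.

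Neurons release transmitter when vesicles dock at the active zone and fuse with the membrane through SNARE proteins, which synaptotagmin and complexin control. Receptors and scaffolds on the postsynaptic side receive the signal, and neurofilaments and microtubules hold the long processes in shape. Neuronal transcripts are also carried into dendrites and axons, and astrocyte processes lie against synapses. In non-neuronal cells many neuronal genes are held silent by the repressor REST, which binds an element near their promoters.

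Promoter windows of 250 bases before to 50 after the annotated start (RefSeq, GRCm38.p6) were at hand for 22 of the 31 genes. They were searched on both strands for TTCAGCACC, the left part of the REST site, for its core, AGCACC and GGACAG with any 2 bases between them, for TGACGTCA, the cAMP response element, and for CACGTG, the E-box that the BMAL1 and CLOCK pair can bind. The left part of the REST site stood in 1 member, Syn1, and in 0.433% of the 27025 genes with a window. The REST core stood in 1 member, Gad2, and in 0.0592% of genes. The cAMP response element stood in 2 members, Syn1 and Meg3, and in 2.03% of genes, and the E-box in 0 members and in 8.09% of genes. The left part and the core share the letters AGCACC where they meet in a full site. The stretches that hold these letters are shown because they are the sequence features found among the list, with the matched letters in capitals. Each is the part of its window that lies before the annotated start and outside the gene as the deposited files place it, which leaves 164 bases for Syn1, 128 for Gad2 and 250 for Meg3. They lie on chrX:20921005-20921168 (minus strand) for Syn1, on chr2:22622077-22622204 (plus strand) for Gad2 and on chr12:109540746-109540995 (plus strand) for Meg3.
Syn1: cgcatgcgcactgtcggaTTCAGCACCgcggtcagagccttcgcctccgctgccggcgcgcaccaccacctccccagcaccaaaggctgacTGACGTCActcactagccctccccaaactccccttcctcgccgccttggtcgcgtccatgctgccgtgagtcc
Gad2: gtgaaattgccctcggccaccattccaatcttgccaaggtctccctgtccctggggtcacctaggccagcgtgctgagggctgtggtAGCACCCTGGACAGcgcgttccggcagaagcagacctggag
Meg3: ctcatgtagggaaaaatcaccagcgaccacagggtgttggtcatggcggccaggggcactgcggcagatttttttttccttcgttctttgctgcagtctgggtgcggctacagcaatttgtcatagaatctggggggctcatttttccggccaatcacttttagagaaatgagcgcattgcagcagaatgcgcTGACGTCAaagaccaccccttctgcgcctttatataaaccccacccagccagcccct
A match is a run of letters, not a bound site.

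Total counts ranged from 38691406 to 51551942 per library. Bmal1, which the files list as Arntl, did not fall in libraries with the KO label. Its level was 9.50, 10.1, 12.1 and 13.3 CPM in KO astrocytes (mice 60, 62, 73 and 132) and 7.52, 7.01, 5.38 and 8.80 CPM in WT astrocytes (mice 56, 57, 64 and 78), and 4.97 and 5.12 CPM in KO flowthrough (60 and 132) against 5.28 and 4.29 CPM in WT flowthrough (56 and 64). CPM here is counts per 1000000 total counts, scaled by TMM factors over all 12 libraries. The log2 difference in astrocytes was 0.66 ± 0.19 (edgeR adjusted p = 0.473), and a count over the whole gene does not tell whether floxed exons were removed. The groups are therefore named by their labels. Astrocyte identity followed the fraction, since Aldh1l1 averaged 205 ± 68.2 CPM in the 8 astrocyte libraries and 64.9 ± 11.9 CPM in the 4 flowthrough libraries (SD). Xist was at 45.1 CPM in the KO 73 library and 26.7 CPM in the WT 78 library and at or under 0.198 CPM in the other 10, which had Ddx3y at 60.4 CPM or more, so the flowthrough libraries all came from one sex and the astrocyte libraries from both.

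RNA of the listed genes was found in every library of the astrocyte fraction, and which cells it came from was not tested. The 31 genes took 0.386% to 0.740% of all counts in KO astrocytes and 0.504% to 0.790% in WT astrocytes, against 0.163% and 0.432% in KO flowthrough and 0.121% and 0.193% in WT flowthrough. Set beside each other per kilobase of exon, as deposited RPKM, the genes spread over a wide range of levels. Snap25, a SNARE of the presynaptic membrane, had a median of 188 RPKM over the 8 astrocyte libraries, above 98.2% of the 18060 genes detected there (GRCm38, chr2:136713453-136782428, plus strand). Camk2a, the kinase subunit enriched in postsynaptic densities of forebrain excitatory neurons, followed with 182 RPKM, and then Cplx1 (170 RPKM), a complexin that clamps and triggers fusion, Tubb3 (153 RPKM), a neuronal tubulin, Stmn2 (113 RPKM), which regulates microtubules in growing axons, and Nefl (101 RPKM), the light neurofilament chain. At the other end stood Slc17a6 (2.93 RPKM), which loads glutamate into vesicles, mainly in subcortical neurons, and Slc32a1 (0.641 RPKM), which loads GABA and glycine. In 28 of the 30 steps of this order the ranges of neighbouring genes over the 8 libraries overlapped. The exceptions were Map2, at 22.7 to 38.7 RPKM, above Thy1, at 13.8 to 20.1 RPKM, and Slc17a6, at 1.82 to 4.93 RPKM, above Slc32a1, at 0.536 to 1.29 RPKM.

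**Figure D1:**
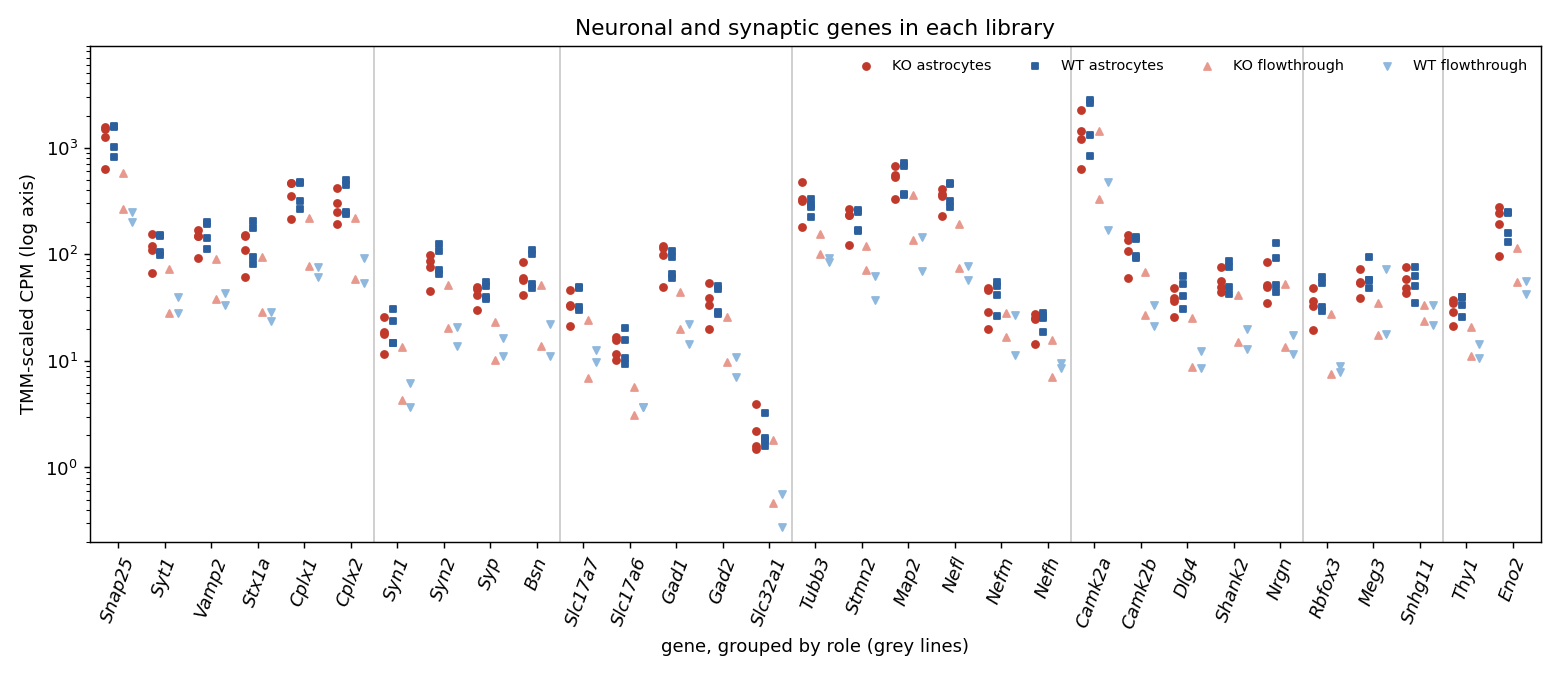
Level of each of the 31 genes in each library, as TMM-scaled CPM on a log axis; each symbol is 1 library, and the colours and shapes give label and fraction. Every astrocyte library lies above every flowthrough library for 12 of the 31 genes. The upper KO flowthrough symbol, mouse 60, reaches astrocyte libraries for most of the others, and without that library the count is 29. For Camk2a it lies above the KO 73, KO 132, WT 56 and WT 64 astrocytes.

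Compared with the flowthrough, the astrocyte fraction held more RNA of nearly all of these genes. Of the 31 members, 30 were higher in astrocytes and 0 lower at an edgeR adjusted p under 0.05, where 24.8% of the 20997 genes tested were higher and 24.4% lower. The median log2 fold change of the members was 1.59, a 3.02-fold difference, and that of all genes was 0.00. The estimates ran from 0.79 for Meg3, the member that was not called, to 2.01 for Snap25. In bulk libraries fewer cells of a type and less RNA per cell cannot be told apart, and the share of neurons in each fraction is not known. The mitochondrial share of counts was 12.6% to 16.98% in KO astrocytes and 13.7% to 21.4% in WT astrocytes, against 7.95% and 12.7% in KO flowthrough and 4.66% and 8.20% in WT flowthrough, and its part in the difference was not tested.

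The vesicle fusion genes rose in 6 of 6 cases. Snap25 was at 1504, 1557, 633 and 1270 CPM in KO astrocytes (60, 62, 73 and 132) and 822, 1582, 1009 and 1574 CPM in WT astrocytes (56, 57, 64 and 78), against 584 and 263 CPM in KO flowthrough (60 and 132) and 248 and 202 CPM in WT flowthrough (56 and 64). Every astrocyte library was above every flowthrough library, with the KO 73 astrocytes and the KO 60 flowthrough nearest to each other. The log2 fold change of Snap25 was 2.01 ± 0.32 (SE, edgeR adjusted p = 0.000428). Cplx1 had 463, 466, 215 and 352 CPM in KO astrocytes and 268, 462, 315 and 479 CPM in WT astrocytes, against 217 and 78.0 CPM in KO flowthrough and 76.1 and 61.2 CPM in WT flowthrough, a log2 difference of 1.91 ± 0.32 (edgeR adjusted p = 0.000566). Here the KO 60 flowthrough library reached the KO 73 astrocyte library. Vamp2, the vesicle SNARE, Syt1, the calcium sensor of fusion, Stx1a, the other SNARE of the presynaptic membrane, and Cplx2, a second complexin, rose by log2 1.59, 1.53, 1.68 and 1.68.

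Genes of vesicle and active zone proteins did the same in 4 of 4 cases. Syn2, a synapsin that tethers vesicles in the reserve pool, was at 98.2, 86.0, 45.2 and 75.3 CPM in KO astrocytes and 65.9, 107, 70.7 and 124 CPM in WT astrocytes, against 51.2 and 20.4 CPM in KO flowthrough and 20.9 and 13.7 CPM in WT flowthrough. Its log2 fold change was 1.75 ± 0.31 (edgeR adjusted p = 0.000838). Syn1, its paralog, Syp, the vesicle membrane protein synaptophysin, and Bsn, the active zone scaffold bassoon, had log2 fold changes of 1.56, 1.53 and 1.56.

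Genes of transmitter synthesis and loading rose in 5 of 5 cases, on the glutamate and the GABA side. Gad1, which makes GABA, had 115, 120, 49.1 and 98.4 CPM in KO astrocytes and 59.7, 107, 65.0 and 95.0 CPM in WT astrocytes, against 44.4 and 20.0 CPM in KO flowthrough and 22.3 and 14.3 CPM in WT flowthrough, a log2 difference of 1.86 ± 0.31 (edgeR adjusted p = 0.000590). Slc17a6 had 11.5, 15.6, 10.1 and 16.6 CPM in KO astrocytes and 10.6, 15.8, 20.5 and 9.27 CPM in WT astrocytes, against 5.68 and 3.14 CPM in KO flowthrough and 3.66 and 3.72 CPM in WT flowthrough, a log2 difference of 1.77 ± 0.27 (edgeR adjusted p = 0.000311). For both genes the fractions did not overlap. Slc17a7, the cortical vesicular glutamate transporter, Gad2, the other GABA-making enzyme, and Slc32a1 had log2 fold changes of 1.47, 1.57 and 1.69.

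The cytoskeletal genes rose in 6 of 6 cases, and by less for a pair of neurofilament chains. Map2, which binds dendritic microtubules, was at 674, 554, 332 and 526 CPM in KO astrocytes and 366, 721, 363 and 677 CPM in WT astrocytes, against 361 and 136 CPM in KO flowthrough and 144 and 69.8 CPM in WT flowthrough (log2 1.69 ± 0.35, edgeR adjusted p = 0.00197). Nefl was at 413, 368, 231 and 353 CPM in KO astrocytes and 276, 457, 315 and 463 CPM in WT astrocytes, against 193 and 74.9 CPM in KO flowthrough and 77.1 and 57.1 CPM in WT flowthrough (log2 1.92 ± 0.28, edgeR adjusted p = 0.000261). Only Nefl of these 2 genes had no overlap between the fractions.

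Nefm, the medium neurofilament chain, was at 48.6, 46.1, 20.0 and 28.7 CPM in KO astrocytes and 26.2, 50.8, 41.1 and 54.7 CPM in WT astrocytes, against 28.4 and 16.8 CPM in KO flowthrough and 11.3 and 26.7 CPM in WT flowthrough. The fractions overlapped, and the log2 difference was 0.92 ± 0.32 (edgeR adjusted p = 0.0318). The call of Nefm was lost with 6 of the 12 libraries left out in turn, at adjusted p = 0.0541 without KO 60, 0.0562 without KO 62, 0.0547 without WT 57 and 0.0542 without WT 78 astrocytes, and 0.139 without KO 132 and 0.128 without WT 56 flowthrough. Nefl and Nefm share 1108 exon bases on opposite strands in the annotation, and the strand setting of the counting is not stated, so the reads of this pair may not be separated. Nefh, the heavy chain, had a log2 fold change of 1.23, and Tubb3 and Stmn2 had 1.51 and 1.62.

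On the postsynaptic side 5 of 5 genes rose, with the largest standard error of all members for Camk2a. Its level was 2278, 1432, 633 and 1201 CPM in KO astrocytes and 1307, 2779, 835 and 2607 CPM in WT astrocytes, against 1430 and 333 CPM in KO flowthrough and 480 and 169 CPM in WT flowthrough. The KO 60 flowthrough library thus lay above the KO 73, KO 132, WT 56 and WT 64 astrocyte libraries, and the log2 difference was 1.59 ± 0.52 (edgeR adjusted p = 0.0234). That call was lost without KO 132 flowthrough (adjusted p = 0.0933) or WT 64 flowthrough (0.107), and without KO 60 flowthrough the fold was 4.84 in place of 3.02. Without that library the folds of Cplx2, Bsn, Slc32a1 and Nrgn were 4.87, 4.44, 4.91 and 4.63, and with it none of these 4 was above 3.22. Camk2b, the partner subunit, Dlg4 and Shank2, which are scaffolds of the postsynaptic density, and Nrgn, a calmodulin-binding protein of dendritic spines, had log2 fold changes of 1.69, 1.65, 1.48 and 1.59.

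The pair of neuronal long noncoding RNAs had, with Nefm, the smallest differences. Meg3, an imprinted noncoding RNA abundant in neuronal nuclei, was at 55.2, 72.6, 54.0 and 39.3 CPM in KO astrocytes and 94.6, 57.7, 57.7 and 48.5 CPM in WT astrocytes, against 34.6 and 17.6 CPM in KO flowthrough and 73.2 and 17.7 CPM in WT flowthrough. In mouse 56 both fractions were the highest of their kind, and the log2 difference over all libraries was 0.79 ± 0.35 (edgeR adjusted p = 0.0810). With the mouse as a block over the 4 mice that gave both fractions it was 0.96 and Meg3 was called (adjusted p = 0.00823), and without the WT 56 flowthrough it was 1.47 (adjusted p = 0.00358). Snhg11, another noncoding RNA of neurons, was at 48.2, 76.1, 58.7 and 43.6 CPM in KO astrocytes and 62.5, 50.5, 75.4 and 35.0 CPM in WT astrocytes, against 33.7 and 23.5 CPM in KO flowthrough and 33.6 and 21.6 CPM in WT flowthrough (log2 1.0 ± 0.23, edgeR adjusted p = 0.00440). The fractions did not overlap for Snhg11. Rbfox3, the splicing factor known as the nuclear marker NeuN, Thy1, a neuronal surface glycoprotein, and Eno2, the neuronal enolase, had log2 fold changes of 1.68, 1.19 and 1.62.

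**Figure D2:**
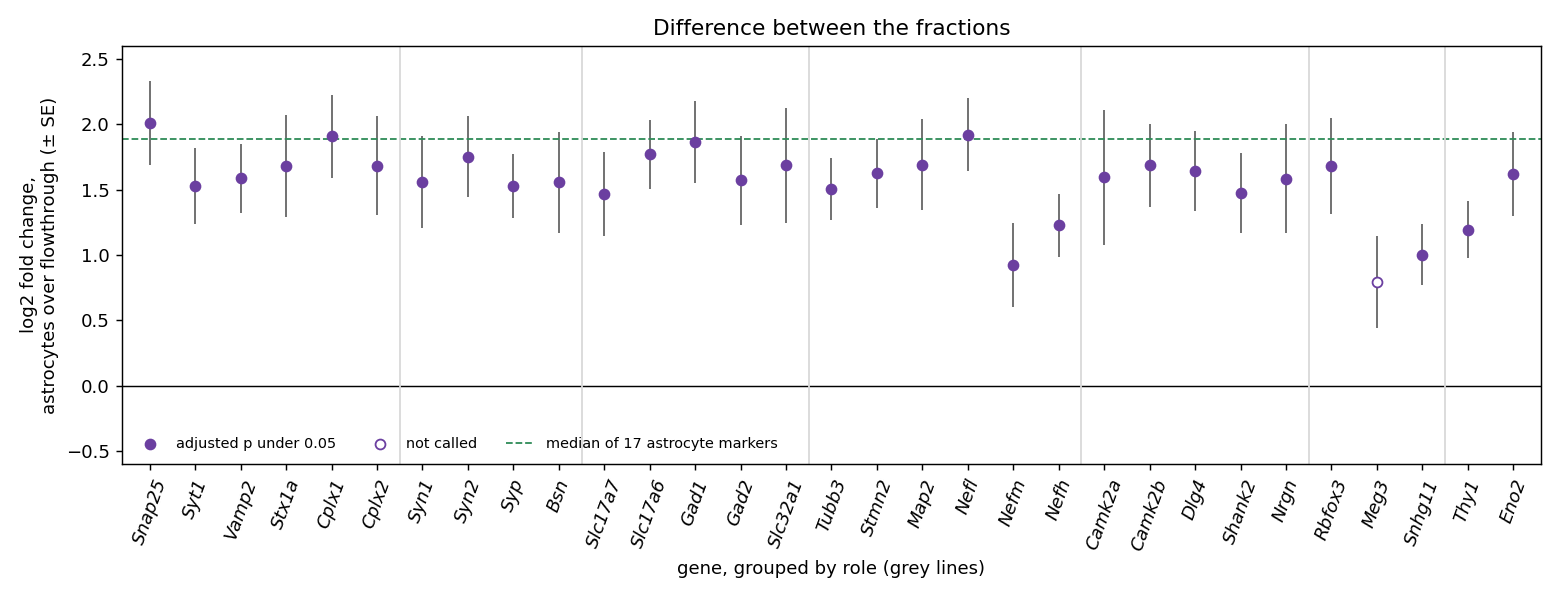
Log2 fold change of each gene, astrocytes over flowthrough, with its standard error, from the fit over 12 libraries; filled symbols have an adjusted p under 0.05, and the dashed line is the median of the 17 astrocyte markers, 1.89. Most genes lie near 1.6, Snap25 is highest at 2.01, and Meg3, Nefm and Snhg11 are the lowest at 0.79, 0.92 and 1.0.

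The same direction held inside each animal. In all 4 mice with both fractions the log2 ratio of astrocytes over flowthrough was above 0 for 31 of 31 members, as it was for 31% of the genes tested. The median ratio of the members was log2 0.93 in KO 60 and 1.95 in KO 132, and 1.35 in WT 56 and 2.10 in WT 64. Every astrocyte library was above every flowthrough library for 12 members, against 12.2% of all genes. This count was 29 members without the KO 60 flowthrough, against 20.1% of all genes. That library was the highest flowthrough library for 30 of 31 members, with 4242 CPM summed over the list, while the other flowthrough libraries had 1502 CPM (KO 132), 1788 CPM (WT 56) and 1086 CPM (WT 64). Its summed level of the astrocyte markers was also the highest, 11422 CPM against 4173 to 6025 CPM, as was that of the oligodendrocyte markers, 29997 CPM against 12610 to 15525 CPM. Its microglia markers summed to 16598 CPM, the lowest of the flowthrough libraries, against 19705 to 25839 CPM. The part of these differences in the results was not tested.

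Set against the astrocyte markers of the same library, the neuronal genes were lower in the astrocyte fraction of every mouse that gave both. For each 100 CPM of the 17 astrocyte markers the members summed to 28.9, 24.4, 24.1 and 24.7 CPM in KO astrocytes (60, 62, 73 and 132) and 20.7, 35.1, 23.1 and 31.4 CPM in WT astrocytes (56, 57, 64 and 78), against 37.1 and 27.2 CPM in KO flowthrough (60 and 132) and 29.7 and 26.0 CPM in WT flowthrough (56 and 64). The ratio was lower in the astrocytes than in the flowthrough in 4 of 4 mice, and over all libraries the fractions overlapped. Camk2a and Snap25 made up 34.2% to 48.7% of the members' sum, depending on the library.

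Other genes outside the list, chosen as synaptic or neuronal, mostly moved the same way. Which cells made their RNA was not tested. Of 47 other presynaptic genes 40 were higher in astrocytes and 2 lower (median log2 1.52). Among those higher were Syt11 (1.47 ± 0.19), a synaptotagmin that does not bind calcium, and Dnm3 (1.13 ± 0.14), a dynamin of endocytosis. Of the vesicle genes that were lower, Unc13b had a log2 fold change of -0.88 and Syngr1 of -0.58. Of 25 other postsynaptic genes 23 were higher and 0 lower (median log2 1.43), with Nlgn1 at 2.00 ± 0.23 and Nlgn3 at 1.81 ± 0.20, both adhesion proteins. Of 42 other genes of neuronal identity 33 were higher and 0 lower (median log2 1.42), among them Elavl3 (1.64 ± 0.26) and Elavl4 (1.62 ± 0.25), RNA-binding proteins of neurons.

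Lists of markers of neuron classes had median log2 fold changes of 0.38 to 2.84 between the fractions. Of 6 genes of cerebellar granule cells 6 were higher in astrocytes, with a median log2 fold change of 2.84, and Cbln3, a secreted synapse organiser of these cells, was at 3.36 ± 0.43. Of 4 genes of Purkinje cells 4 were higher, with a median of 1.80 and Car8 at 2.44 ± 0.28. All 9 genes of cortical and hippocampal glutamatergic neurons were higher (median 1.46), as were 7 of 8 of GABAergic interneurons (median 1.24). Pvalb, a calcium buffer, had the highest estimate of the latter list, at 2.14 ± 0.24, and the lowest estimate there was 0.59. With 1 library left out the medians of these lists were 1.21 to 2.04 and 1.15 to 1.86, and that of the Purkinje list 1.63 to 2.00. Fewer genes of the glutamatergic, GABAergic and Purkinje lists were called without KO 132 flowthrough or without WT 64 flowthrough. Striatal genes differed less: 2 of 6 were higher and 1 lower, with a median of 0.38, and the gene that was lower was Ppp1r1b (-0.73 ± 0.14), a phosphatase regulator of medium spiny neurons. Without KO 132 flowthrough or without WT 64 flowthrough 1 striatal gene was called higher. Of 6 monoaminergic and cholinergic genes 2 were higher, Th (2.16 ± 0.22), the enzyme that makes dopamine precursor, and Slc6a3 (2.61 ± 0.67), the dopamine transporter, which is named here after its value was seen. Without the KO 73 astrocytes 4 of the 6 were higher. These medians come from lists of 4 to 9 genes, and differences between the classes were not tested.

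Markers of other cells put the neuronal genes in context. All 17 astrocyte markers were higher in the astrocyte fraction, with a median log2 fold change of 1.89. All 15 microglia markers were lower (median -3.47), as were 10 of 10 blood and lymphocyte markers (-4.85), 10 of 10 endothelial markers (-1.14) and 4 of 8 ependymal and choroid markers (-1.40). Fewer endothelial markers were called without KO 132 flowthrough or without WT 64 flowthrough, where their medians were -1.11 and -1.02. Of 8 pericyte and smooth muscle markers 3 were lower (-0.46). Oligodendrocyte precursor markers were higher for 7 of 9 genes (median 1.0), and for 4 of 9 without KO 132 flowthrough. Oligodendrocyte markers were higher for 5 of 13 genes (median 0.85), a count that rested on single libraries. It was 1 without KO 132 or WT 64 flowthrough, 9 without WT 56 flowthrough, and 8 without KO 60 or KO 73 astrocytes. Markers of neuroblasts and immature neurons were higher for 6 of 10 genes and lower for 2 (median 0.86). Those lower were Sox4 (-0.85 ± 0.24), a transcription factor of maturing neurons, and Cd24a (-1.45 ± 0.45), a surface glycoprotein, and without KO 132 or WT 56 flowthrough 1 gene was lower. Of 8 synapse-related genes that glia also make 8 were higher (median 1.83). The members' median of 1.59 thus lay between those of the oligodendrocyte precursor and the astrocyte lists.

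**Figure D3:**
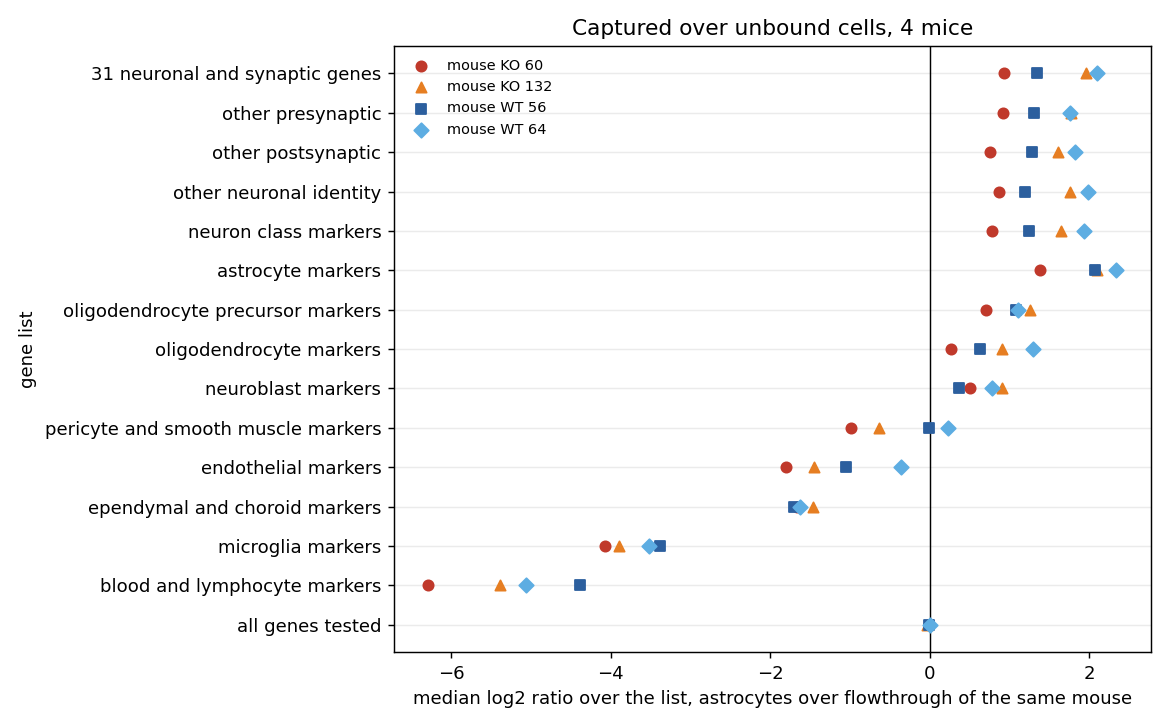
Median log2 ratio of astrocytes over flowthrough of the same mouse for each gene list (horizontal axis), with 1 symbol for each of the 4 mice; lists run down the page. The 31 neuronal and synaptic genes lie at 0.93 to 2.10, below the astrocyte markers of the same mouse and above all genes, while microglia and blood markers lie far below 0.

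Between the labels, the summed level of the members in the astrocyte fraction differed by less than the spread between libraries. The members summed to 8149, 7084, 3436 and 5907 CPM in KO astrocytes (60, 62, 73 and 132) and to 4874, 8962, 4852 and 8816 CPM in WT astrocytes (56, 57, 64 and 78), and these ranges overlapped. By edgeR 0 of 31 members were called, where 0.232% of 18527 genes were, and 0 had an unadjusted p under 0.05, where 5.37% of genes had. DESeq2 and limma-voom also called 0 members. No member had groups that did not overlap, against 4.03% of all genes. The median log2 difference was -0.16, and 7 of 31 estimates were above 0, against 50.8% of all genes.

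The lowest estimates were those of Nrgn and Camk2a, both postsynaptic. Rbfox3 (-0.36) and Bsn (-0.34) came next, and the postsynaptic genes Shank2 and Camk2b were at -0.17 and -0.04. Nrgn was at 84.3, 51.4, 35.2 and 49.7 CPM in KO astrocytes and 44.5, 92.4, 51.6 and 127 CPM in WT astrocytes, with a log2 difference of -0.51 ± 0.36 (edgeR adjusted p = 0.995). Camk2a, whose levels are given above, had a log2 difference of -0.43 ± 0.45 (edgeR adjusted p = 0.995). The highest estimates were those of Tubb3 (0.24 ± 0.26) and Gad1 (0.23 ± 0.28). Tubb3 was at 314, 481, 179 and 333 CPM in KO astrocytes and 226, 327, 288 and 275 CPM in WT astrocytes, so that KO libraries were both the highest and the lowest. Snap25 averaged 1241 ± 424 CPM in KO astrocytes and 1247 ± 390 CPM in WT astrocytes (SD), a log2 difference of 0.00 ± 0.31. With standard errors of 0.19 to 0.45 these libraries do not show that the groups were alike.

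Leaving out single libraries moved these estimates. KO 73 was the lowest astrocyte library for 27 of 31 members and WT 78 the highest for 14, and these are the libraries with Xist. KO 73 also had the lowest summed astrocyte markers, 14239 CPM against 20971 to 29026 CPM in the other 7 astrocyte libraries, and the highest summed microglia markers, 4446 CPM against 942 to 1839 CPM. Without KO 73 the median log2 difference was 0.00 and 17 estimates were above 0. It was -0.053 without WT 78 (13 above 0), -0.065 without WT 57 (11 above 0) and -0.28 without KO 60 (4 above 0). Without KO 73 and WT 78 it was 0.12, 27 estimates were above 0, and 22 members had changed sign. In all of these fits 0 members were called. Among the other lists 0 of 47 presynaptic, 0 of 25 postsynaptic, 0 of 42 neuronal identity and 0 of 38 neuron class genes tested were called by edgeR, with 2, 1, 1 and 3 at an unadjusted p under 0.05. Of the marker lists, astrocyte genes had a median log2 difference of -0.23, with 3 of 17 estimates above 0, 0 called and 4 at an unadjusted p under 0.05. Microglia genes had a median log2 difference of 0.55 and oligodendrocyte genes of 0.77, with 15 of 15 and 13 of 13 estimates above 0, 0 called, and 0 and 5 at an unadjusted p under 0.05.

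In the flowthrough the estimates ran toward the KO label and rested on 1 library. Of 31 members 30 had a log2 difference above 0, against 54.4% of all genes, with a median of 0.82. Other lists lay on the same side: 42 of 47 other presynaptic genes (median 0.63), 23 of 25 other postsynaptic genes (0.52), 34 of 42 other genes of neuronal identity (0.69), 16 of 17 astrocyte markers (0.49) and 10 of 10 endothelial markers (0.58) had estimates above 0. Ependymal and choroid markers lay on the other, with 0 of 8 above 0 (median -0.89), and summed to 19340 and 23419 CPM in KO flowthrough (60 and 132) against 34062 and 40346 CPM in WT flowthrough (56 and 64). None of these lists had a gene called, and their part in the members' values was not tested. None of the members was called by edgeR, where 0.00476% of genes were, and 5 had an unadjusted p under 0.05 (Cplx1, Syn2, Stmn2, Map2 and Nefl), where 4.63% of genes had. That number was 7 with DESeq2, 2 with limma-voom and 1 with the flowthrough libraries alone. With the mouse as a random block it was 0, and the median was 0.43 with 28 estimates above 0. DESeq2 and limma-voom called 0 members as well. Stmn2 was at 119 and 70.4 CPM in KO flowthrough and 62.0 and 37.5 CPM in WT flowthrough, a log2 difference of 0.93 ± 0.40 (edgeR adjusted p = 1). The groups did not overlap for Stmn2, Snap25, Cplx1 and Tubb3, against 33.6% of all genes. Meg3 alone had an estimate below 0, at -0.80 ± 0.56. Without the KO 60 flowthrough the median was -0.10 and 13 estimates were above 0. Without the KO 132 flowthrough it was 1.33, and 24 members had an unadjusted p under 0.05, where 8.71% of genes had in that fit, again with 0 called.

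**Figure D4:**
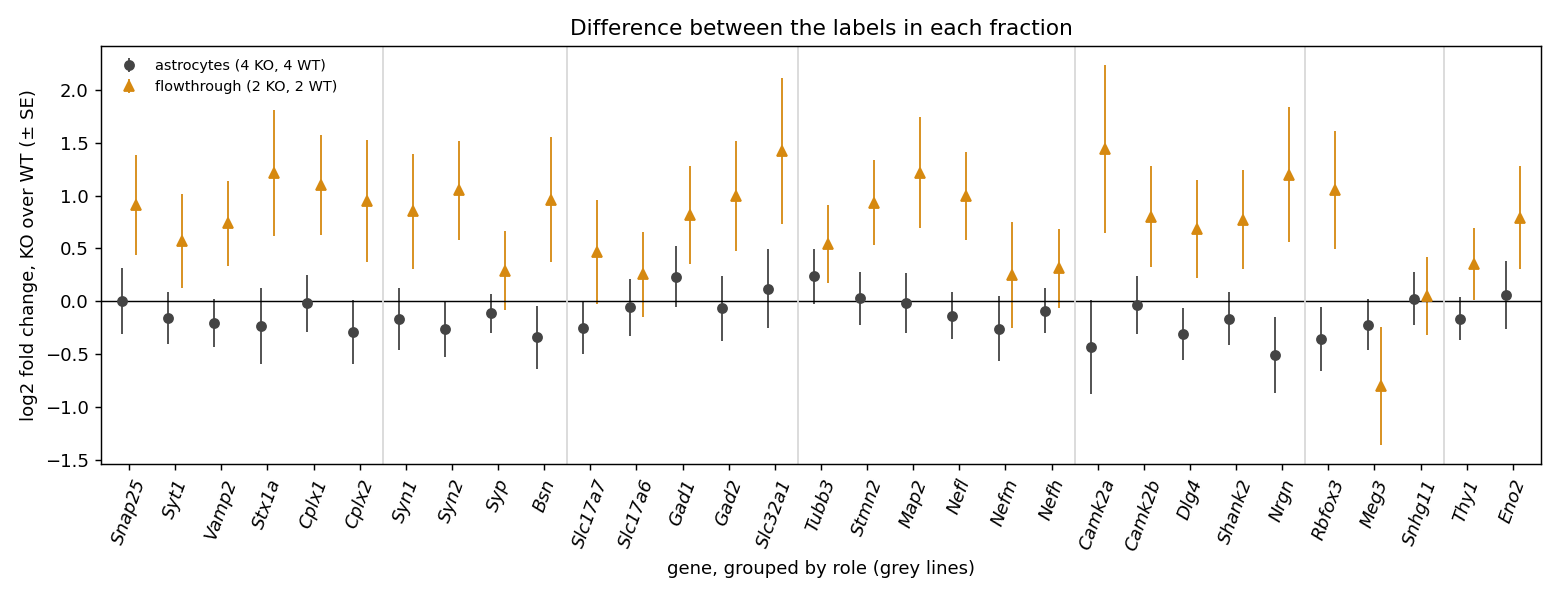
Log2 fold change of each gene, KO over WT, with its standard error, in astrocytes (circles, 4 libraries each) and in flowthrough (triangles, 2 libraries each). Astrocyte estimates lie between -0.51 and 0.24 and flowthrough estimates mostly above 0, and no gene was called in either fraction.

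Whether the fraction difference depended on the label was tested as an interaction. The median log2 fold change of the members between the fractions was 1.08 among KO libraries and 2.11 among WT libraries. Within KO 11 of 31 members were called higher by edgeR, where 9% of all genes were, and within WT 29, where 19.4% were. The KO count was 3 with KO 60, KO 62 or KO 132 astrocytes left out, and 17 with KO 73 left out. The KO median was 2.02 without KO 60 flowthrough and 0.57 without KO 132 flowthrough. The WT median was 2.47 without WT 56 flowthrough and 1.85 without WT 64 flowthrough. For the interaction the median of the differences was -0.95, against -0.03 for all genes. By edgeR 0 of 31 members and 0% of the genes were called. An unadjusted p under 0.05 was found for 3 members (Syn2, Nefl and Nrgn) and for 3.94% of genes, and DESeq2 and limma-voom called 0 members. The median of the differences was -0.03 without the KO 60 flowthrough, with 0 members at that p, and -0.31 with the mouse as a block. Without the KO 132 flowthrough it was -1.45, with 23 members at an unadjusted p under 0.05, where 8.6% of genes were in that fit, and 0 called.

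Across the 8 astrocyte libraries most of the members varied together. As a description, and since all genes of a library share its preparation and depth, correlations are given without a test. The log2 CPM of 26 of 31 members had a Pearson r of 0.853 to 0.990 with the mean of the other 30 over these 8 libraries, past a line drawn at 0.85 after the values were seen. Of all 20997 genes tested, 9.23% had an r of at least 0.85 with the mean of the members. Among 8861 named genes outside all lists with mean log2 CPM of at least 3, the share was 14.9%. Syp (0.990), Nefl (0.989) and Syt1 (0.986) followed the rest most closely. Tubb3 (r = 0.64) and Slc32a1 (0.63) followed them more loosely, and Slc17a6 had r = 0.06, Meg3 -0.22 and Snhg11 -0.49. Slc32a1 and Slc17a6 are the members of lowest level per length, whereas Tubb3 is among the highest, and Meg3 and Snhg11 are the noncoding RNAs of the list. WT 78, the library with the most members at their highest, had the lowest Slc17a6 and Snhg11 of the 8, at 9.27 and 35.0 CPM. WT 64 had the highest Slc17a6, at 20.5 CPM.

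**Figure D5:**
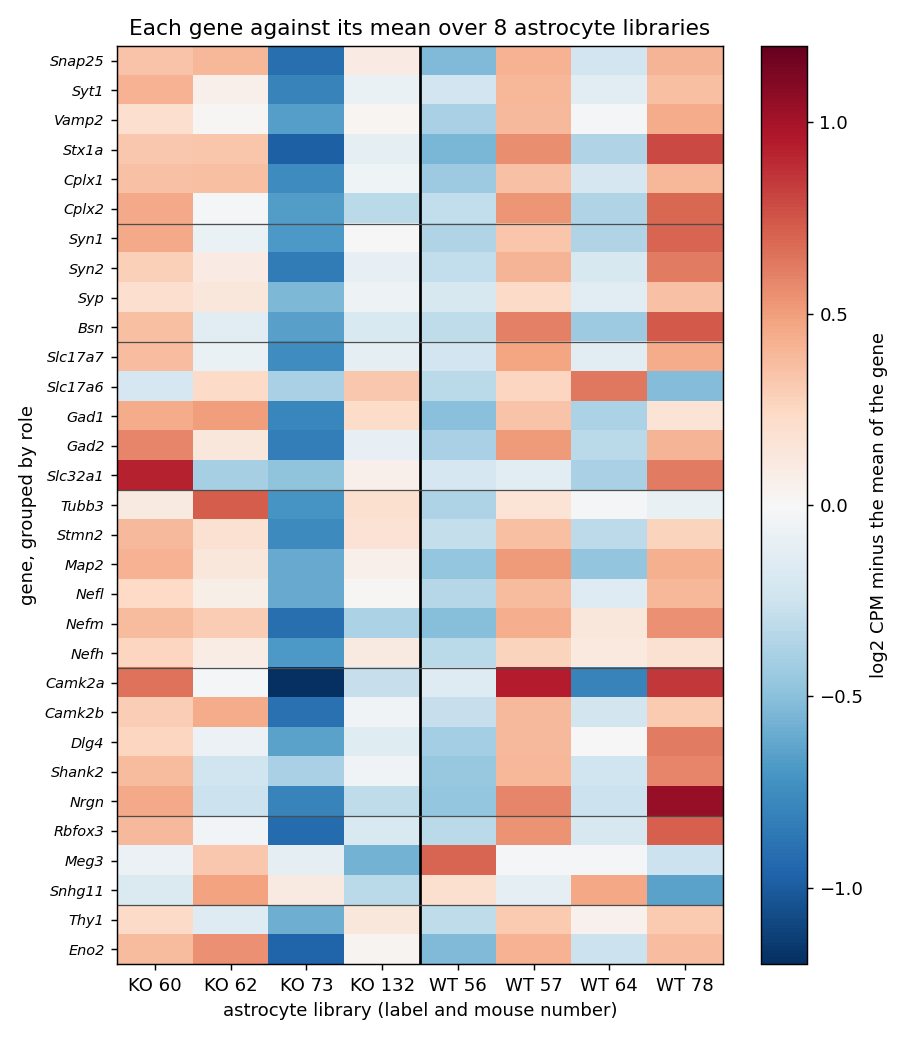
Log2 CPM of each gene in each of the 8 astrocyte libraries, minus the mean of the gene over them; red is above and blue below the mean, KO libraries are left of the black line and WT libraries right of it. Most rows are blue in KO 73 and red in KO 60, WT 57 and WT 78, while Slc17a6, Meg3 and Snhg11 follow other patterns.

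Among the 10 genes outside all lists whose level was most like the mean of the members over the 8 astrocyte libraries, among 8861 candidates, were Diras2 (r = 0.994), Adcy1 (0.993), Fxyd7 (0.993), Atp2b2 (0.992), Sez6 (0.990), Akap6 (0.990), Cacng3 (0.990), Stmn3 (0.989) and B4galt2 (0.987). The mean of the astrocyte markers had r = 0.85 with the mean of the members, and the mean of the microglia markers -0.96. KO 73, with low members, low astrocyte markers and high microglia markers, is 1 of these 8 points.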

How the data were processed

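Raw read counts, CPM and RPKM stand side by side in 1 table per library, per the file headers, over 41388 genes. The authors' deposited counts are whole numbers and were the only values tested. Deposited CPM was checked and is each count divided by its library's total and multiplied by 1000000, with no other scaling. The deposited RPKM values divide CPM by exon length in kilobases and were used to compare levels between genes. The submitters' processing notes name GRCm38, the counter featureCounts 1.4.6-p5 with Subread, the aligner STAR 2.5.1a, and bcl2fastq. The handling of strand and of multi-mapped reads is not stated there. Symbols matched for 40254 gene IDs. No molecular identifiers are named, so a floor of 3 counts (0.0582 to 0.0775 CPM) covers counting error only.

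Counts were tested with edgeR 4.0.16 (R 4.3.3) by the two-sided quasi-likelihood test, with TMM factors, filterByExpr and Benjamini-Hochberg adjustment over all genes, called at an adjusted p under 0.05. KO and WT astrocytes were compared over 8 libraries (18527 genes, 6 residual degrees of freedom), and the other comparisons over 12 libraries, with a mean for each of 4 groups (20997 genes tested, 8 residual degrees of freedom). Correlations used log2 CPM with a prior count of 2. Scripts were tested on simulated counts.

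The members and all lists were chosen with earlier results of these data known, so counts over them are descriptions. Named are all members, up to 4 genes of each other list with the smallest p, the checks Arntl and Aldh1l1, and the 10 genes most like the members among symbols with mean log2 CPM of at least 3. Unc13b, Syngr1, Ppp1r1b, Sox4, Cd24a, Slc6a3 and the sex-linked genes are named outside this rule, after their values were seen. Some genes that the rule names are not reported here. Since 4 mice gave both fractions, equal mouse numbers pair libraries of 1 animal. The correlations of paired deviations from the group means were 0.352 (KO 60), -0.0066 (KO 132), 0.155 (WT 56) and 0.251 (WT 64).

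Alternatives were DESeq2 1.42.0, limma-voom 3.58.1, scaling by RLE or by library size, a filter at 1 CPM or none, a threshold of 0.1, subsets of the libraries, a block for the mouse, and each library left out in turn. Leaving out each library for the other lists, and KO 60 flowthrough for the count of members that did not overlap, was chosen after seeing the data. Promoter windows came from RefSeq (GRCm38.p6). Figures were drawn with matplotlib 3.10.9.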

Additional observations from a re-analysis of the deposited data

How the results depend on the processing

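The count of members higher in astrocytes than in flowthrough was 28 to 31 under all 22 alternatives and 28 to 30 with 1 library left out, with a median log2 fold change of 1.35 to 2.07. Nefm was lost in 8 alternatives, among them library size scaling (adjusted p = 0.0501) and the 4 paired mice with no replicate block (0.0829), and Camk2a in 3, among them the 4 paired mice with no replicate block (0.0636). Meg3 was called in 5: DESeq2 (adjusted p = 0.0463), limma-voom (0.0337), a threshold of 0.1, the replicate block (0.00823) and without WT 56 flowthrough (0.00358). Library size scaling moved the median of all genes between the fractions to -0.14, where the members' median was 1.42.

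The KO and WT comparisons and the interaction had 0 members called under every alternative run. The median log2 difference in astrocytes was -0.28 to 0.00 with 1 library left out. In flowthrough it was -0.096 to 1.33 with 1 library left out. For the interaction it was -1.45 to -0.032 with 1 library left out, -0.313 with the replicate block and -0.418 over the 4 paired mice with no replicate block. Against the fit over 12 libraries the block changed no other call of a member. Over the same 4 mice, 31 members were called with the replicate block and 28 with no replicate block, the difference being Nefm, Camk2a and Meg3. With 2 flowthrough libraries for each label, leaving 1 out assumes that the lone library varied like the other groups.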
